A study of Mus musculus with 6 samples.

Results

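Polyamine metabolism genes were followed on arrays of mouse mesenchymal stem cells that had been exposed to a terahertz laser. The set named 10 genes, Sat1, Odc1, Azin1, Oaz1, Oaz2, Srm, Sms, Amd1, Smox and Paox, and it was chosen by 1 measured value, the difference between irradiated culture and own control, because Sat1 was higher in the irradiated culture of all 3 experiments. Of the 10 genes, 7 were read by probe sets annotated to that gene alone, out of 18193 genes so measured. Sms was read only by 3 probe sets that also carry the symbol of its pseudogene Sms-ps, and Amd1 and Paox had no probe set named in the annotation used here. Where a gene had several probe sets, its brightest one on average over the 6 arrays was used and the others served as checks.

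The irradiated group held 3 cultures, 1 per experiment, that received continuous-wave far-infrared light at 2.52 THz (118.8 µm) for 2 h. The control group held 3 cultures, each kept beside the irradiated one of its experiment at 26 to 27 °C, and RNA was taken when the exposure ended. The cells of both groups came from a commercial supplier and had been given rosiglitazone (1 µM), insulin (5 µg/ml), isobutylmethylxanthine (100 µM) and dexamethasone (1 µM) again 48 h earlier, so no culture shows these genes without the mixture, and the labels give no age, strain or clone. Each culture was read on 1 Affymetrix array, and precision is limited by there being 3 arrays per group.

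Polyamines (putrescine, spermidine and spermine) are small positively charged molecules that bind RNA, DNA and membranes, and cells keep their amounts within narrow bounds. Ornithine decarboxylase (Odc1) makes putrescine from ornithine, and the synthases Srm and Sms lengthen it to spermidine and spermine with groups that Amd1 prepares from S-adenosylmethionine. The acetyltransferase Sat1 and the oxidases Smox and Paox run the path backwards. Antizymes (Oaz1 and Oaz2) bind ornithine decarboxylase and send it to the proteasome, and their own translation needs a ribosomal frameshift that polyamines promote. The antizyme inhibitor Azin1 resembles the decarboxylase, lacks its activity and draws antizyme away from it. Much of this control acts on translation and protein turnover, which an array of transcripts does not read.

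The sequences before the starts of Sat1 and Odc1 are shown because these genes sit at the entry to the backward and the forward path and because, of the 7 measured genes, they had the largest mean differences between groups. Both come from RefSeq (GRCm38.p6), run 5′ to 3′ on the gene's strand and end before the first annotated transcript base. Capitals mark the GC box GGGCGG, a motif of the Sp1 family, on either strand.
Sat1, chrX:155216450-155216699, minus strand: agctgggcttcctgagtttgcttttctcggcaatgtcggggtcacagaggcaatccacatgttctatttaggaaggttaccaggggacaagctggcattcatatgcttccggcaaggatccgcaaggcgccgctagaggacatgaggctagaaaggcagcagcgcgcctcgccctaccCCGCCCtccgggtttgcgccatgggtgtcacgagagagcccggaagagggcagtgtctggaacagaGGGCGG
Odc1, chr12:17544623-17544807, plus strand: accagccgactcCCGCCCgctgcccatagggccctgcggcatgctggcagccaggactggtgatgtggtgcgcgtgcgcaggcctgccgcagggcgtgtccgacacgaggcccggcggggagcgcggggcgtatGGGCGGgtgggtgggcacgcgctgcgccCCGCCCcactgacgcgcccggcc

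The Sat1 stretch of 250 bases held 2 GC boxes and was 59.6% G or C, and the Odc1 stretch of 185 bases held 3 and was 77.8% G or C. Promoter windows were found for 8 of the 10 genes, all but Azin1 and Srm. In the 250 bases before the annotated start, 7 of these 8 genes had a GC box in at least 1 window, against 32.7% of all 32851 windows. TGACG, the core of the cyclic AMP response element, was in the windows of Odc1, Oaz1 and Amd1 (3 of 8 genes) and in 17.8% of all windows. The polyamine-responsive element TATGACTAA, described upstream of the human SAT1 gene, was in none of the 8 and in 0.0944% of all windows. Also searched were the E box CACGTG (1 of 8 genes, Sms, and 6.02% of windows), CCAAT (2 of 8, 33.8%) and TATAA (1 of 8, 22.8%). The AP-1 site TGANTCA was in 0 of 8 (6.75% of windows) and the heat shock element core GAANNTTC in 1 of 8 (6.69%). The 8 genes had 10 windows and were counted by gene, whereas the shares count single windows, so the 2 are not on the same scale. Both strands were searched for each motif, and a match or its lack describes only these letters in these windows.

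Sat1, which acetylates spermidine and spermine and so starts their breakdown and export, was higher in each irradiated culture than in any control. Its log2 RMA values (probe set 1420502_at) were 11.87, 11.89 and 11.75 in the irradiated cultures of experiments 1 to 3 and 11.67, 11.55 and 11.57 in their controls. The groups did not overlap, and the lowest irradiated value, in experiment 3, lay close above the highest control value, in experiment 1. The paired difference was 0.20, 0.34 and 0.18 log2 units, with a mean of 0.24 ± 0.087 (SD, n = 3), or 1.18-fold. It was as large or larger in 1.4% of all genes, and 0.984% combined such a mean with a difference above 0 in all 3 experiments. All 3 irradiated values lay above all 3 control values in 2.9% of genes. Since this pattern is what the set was picked for, these shares place Sat1 among the other genes and carry no test. In a whole culture, more cells that express a gene and more RNA per cell cannot be told apart.

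**Figure D1:**
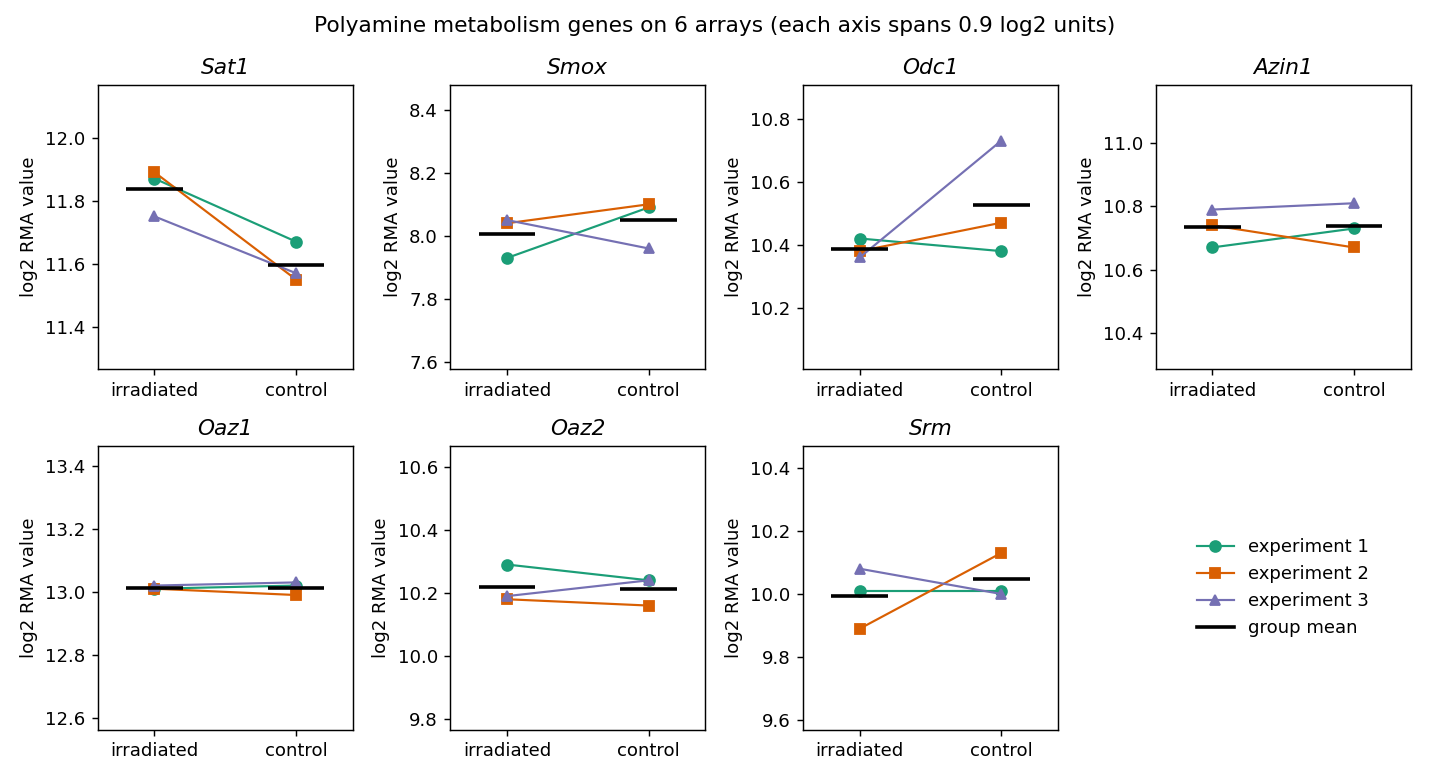
Log2 RMA values of the 7 measured genes in irradiated (left) and control (right) cultures, 1 panel per gene, with a line joining the 2 cultures of an experiment and a bar at each group's mean; every vertical axis spans 0.9 log2 units. Sat1 is higher on the irradiated side in all 3 experiments, while the other 6 genes have overlapping groups and Odc1 is set apart by the control of experiment 3.

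Smox, the oxidase that turns spermine back into spermidine, did not share the pattern of Sat1. Its values were 7.93, 8.04 and 8.05 in irradiated cultures and 8.09, 8.10 and 7.96 in controls, a mean difference of -0.043 ± 0.13 log2 units (SD, n = 3). The groups overlapped, with irradiated cultures lower in experiments 1 and 2 and higher in experiment 3. A dim second probe set (level 2.51) had -0.16, 0.01 and 0.11. Paox, which oxidises the products of Sat1, was not analysed here, so that the step after Sat1 has no value.

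Odc1, the first and tightly regulated enzyme of synthesis, was lower in irradiated cultures on average, and most of this came from 1 control. Its values were 10.42, 10.38 and 10.36 in irradiated cultures and 10.38, 10.47 and 10.73 in controls. The irradiated cultures lay within 0.06 of each other, and the control of experiment 3 stood above the other 5 arrays. The mean difference was -0.14 ± 0.21 log2 units (SD, n = 3), and -0.025 without experiment 3.

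The 2 other probe sets of Odc1 were also lower in the irradiated cultures of experiments 2 and 3, but they disagreed in experiment 1. The nearly as bright 1437711_x_at, whose suffix marks probes that can also match other transcripts, differed by 0.63, -0.12 and -0.61, with a mean of -0.033 ± 0.62. The dimmer 1427364_a_at had 8.02, 7.79 and 7.94 in irradiated cultures against 8.04, 8.08 and 8.28 in controls, and here the groups did not overlap. Its mean difference was -0.22 ± 0.17, and all 3 irradiated values lay below all 3 controls in 5.36% of genes. The control of experiment 3 also stood apart in RNA measures, with a 3′ minus 5′ difference of the actin control probe sets of 0.68 against 0.50 to 0.57 on the other 5 arrays, and of Gapdh of 0.11 against -0.10 to -0.08. The part of this in the Odc1 values was not tested.

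The synthases that follow Odc1 differed from each other. Srm, which makes spermidine, had 10.01, 9.89 and 10.08 in irradiated cultures and 10.01, 10.13 and 10 in controls. Its groups overlapped and its mean difference was -0.053 ± 0.17 log2 units (SD, n = 3), carried by -0.24 in experiment 2. Sms, which makes spermine, lies outside the selection, because the 3 probe sets can also read its pseudogene. On the brightest of them, 1421052_a_at, the values were 8.19, 8.25 and 8.38 in irradiated cultures against 8.10, 7.90 and 7.74 in controls.

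This was the largest mean difference among all 18 probe sets that carry a member's symbol. It came to 0.36 ± 0.28 log2 units, at 0.09, 0.35 and 0.64 in the 3 experiments, and to 0.22 without experiment 3, whose control has the RNA measures given above. The second Sms probe set, 1434190_at, differed by 0.00, 0.18 and 0.16 and the dimmest by 0.22, -0.13 and 0.17. All 3 means were above 0, at 0.36, 0.11 and 0.087, but the irradiated and control arrays overlapped in both dimmer probe sets. On the brightest they did not, with all 3 irradiated values above all 3 controls, as in 2.9% of genes. Sms and Sms-ps cannot be told apart on these probe sets.

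The regulators of ornithine decarboxylase lay at or near 0 on their brightest probe sets. Oaz1, the main antizyme, had 13.01, 13.01 and 13.02 in irradiated cultures and 13.02, 12.99 and 13.03 in controls, with a mean difference of 0.00 ± 0.017 log2 units (SD, n = 3). Its 6 arrays lay closer together than those of any other measured member, although a probe set this bright can respond less than in proportion to RNA. The probe set it shares with Oaz1-ps differed by -0.11, -0.02 and 0.16. Oaz2, a second antizyme, had 10.29, 10.18 and 10.19 in irradiated cultures and 10.24, 10.16 and 10.24 in controls, a difference of 0.0067 ± 0.051. Its other probe sets were at 0.047 and -0.0033.

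Azin1, which frees the decarboxylase from antizyme, gave different values by probe set. The brightest (1450714_at, level 10.73) had 10.67, 10.74 and 10.79 in irradiated cultures and 10.73, 10.67 and 10.81 in controls, a difference of -0.0033 ± 0.067 log2 units (SD, n = 3). The second (1422702_at, level 9.44) had 9.45, 9.50 and 9.58 in irradiated cultures against 9.41, 9.42 and 9.30 in controls. Here the groups did not overlap, with all 3 irradiated values above all 3 controls, as in 2.9% of genes. The difference was 0.13 ± 0.13, with the largest part, 0.28, in experiment 3, whose control has the RNA measures given above. Another, dim probe set (level 3.33) stood at 0.05, 0.07 and 0.46. Which transcripts each Azin1 probe set reads was not analysed here.

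**Figure D2:**
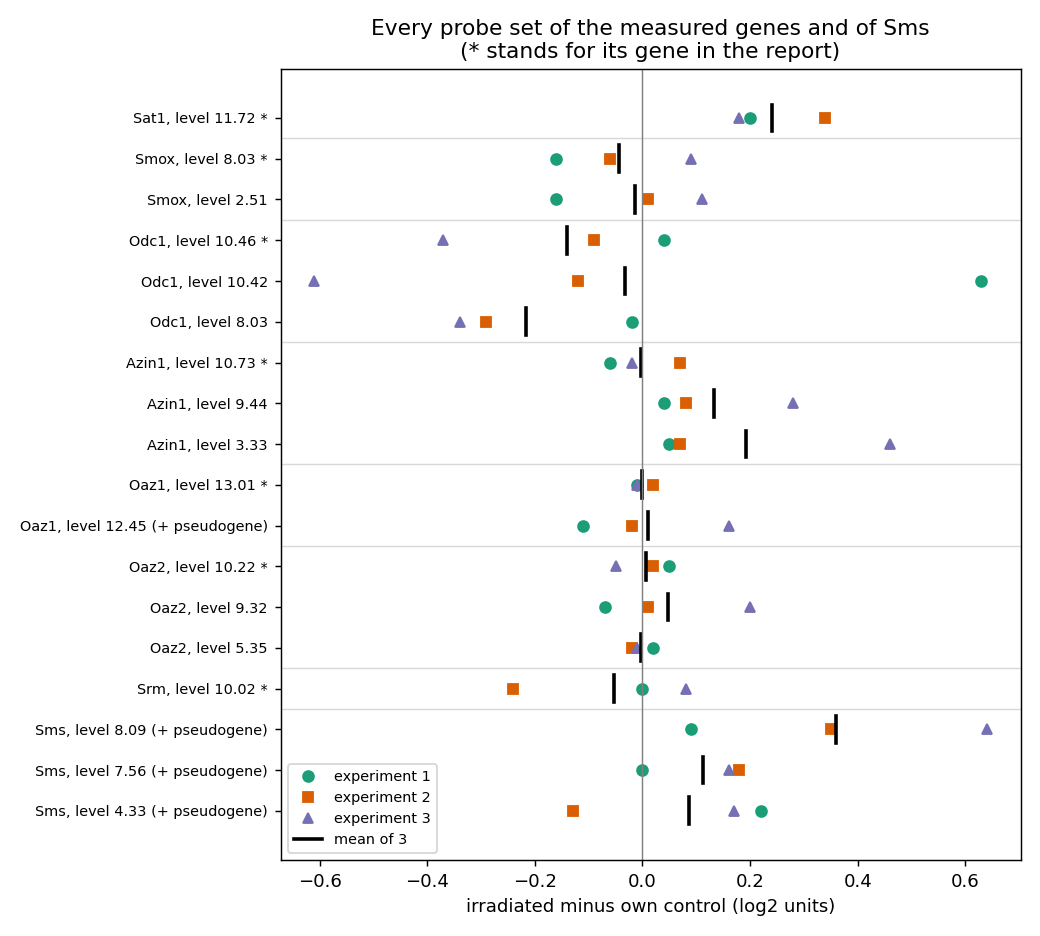
Irradiated minus own control (log2 units) for all 18 probe sets of the measured genes and Sms, with 1 point per experiment, a bar at the mean and the mean level over 6 arrays in the label; an asterisk marks the probe set that stands for its gene. The 3 points of Sat1 lie together above 0, those of 2 Odc1 and 2 Azin1 probe sets are furthest from 0 in experiment 3, and the brightest Sms probe set has its largest difference there as well.

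Across the 7 genes the differences did not run one way. The mean was above 0 for Sat1 and Oaz2 (2 of 7, against 45.2% of all genes), at 0 for Oaz1 and below 0 for the other 4. The median was -0.0033 log2 units against -0.01 over all genes. Only Sat1 was above 0 in all 3 experiments, 1 of 7 members, where 8.23% of all genes were, and 0 of 7 were below 0 in all 3, where 12.8% were. limma with the experiment as a block and Benjamini-Hochberg adjustment called 0 of 18193 genes (0%), hence 0 of the 7, with 603 genes (3.31%) at an unadjusted p under 0.05. As the set was picked in this contrast, no p is given for single members. On their brightest probe sets, the 95% intervals of the 6 members other than Sat1 lay between -0.38 and 0.19 log2 units. Those of other probe sets reached further, from -0.52 to 0.45 for 1437711_x_at of Odc1 and up to 0.35 for 1422702_at of Azin1.

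The choice of the set did not use the mean levels of the 7 genes in each experiment, and these spanned no more than 0.145 log2 units in any gene. All 7 lay above the median gene level of 6.46, between 8.03 for Smox and 13.01 for Oaz1, values set by the probes of each gene too, so that they do not rank the genes. Sat1 averaged 11.77, 11.72 and 11.66 over both cultures of experiments 1 to 3, and Odc1 10.40, 10.43 and 10.55. The span of the 3 experiment means ran from 0.025 log2 units for Oaz1 to 0.145 for Odc1, where the median gene had 0.13. limma's F test over experiments with Benjamini-Hochberg adjustment called 0 of 18193 genes (0%) and 0 of the 7 members, whose smallest unadjusted p was 0.492, for Odc1. At an unadjusted p under 0.05 it gave 994 genes (5.46%). The error of this test is the spread of the paired differences, which the choice of the set did use. With 3 experiments a lack of calls does not show that levels were equal.

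Genes that feed and use the pathway showed no call either. Of 56 further genes in 6 lists 52 were measured, and limma with Benjamini-Hochberg called 0 of them higher and 0 lower. The difference was above 0 in all 3 experiments for 3 of the 52 (5.77%, against 8.23% of all genes) and below 0 in all 3 for 7 (13.5%, against 12.8%), and their median was -0.04 log2 units. The 3 were Agmat, Oat and Slc7a2 and the 7 were Azin2, Dohh, Mtr, Apip, Slc7a1, Slc3a2 and Mxd1, named after their values were seen.

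Among further polyamine enzymes and regulators (6 of 7 measured, median 0.01 log2 units), Satl1, a relative of Sat1, was dim at 2.67 and differed by 0.087, with values of 0.20, -0.10 and 0.16 in the 3 experiments. Agmat, agmatinase, which can make putrescine from agmatine, differed by 0.077 and Azin2, a second antizyme inhibitor, by -0.077. The enzymes that use spermidine to make hypusine, a modified lysine, and the translation factor eIF5A that carries it had a list median of -0.063 over 4 genes. Of these Dohh, the second enzyme of the modification, was at -0.11, -0.17 and -0.13, Eif5a2 averaged -0.12 and Dhps, the first enzyme, 0.04. Without experiment 3 the list medians were -0.01 and -0.018.

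The supply of arginine and ornithine (9 genes, median -0.037 log2 units) held Otc, which turns ornithine into citrulline, at 0.18 on a dim probe set (level 3.04), with 0.58, -0.11 and 0.06. Aldh18a1, which starts ornithine and proline synthesis from glutamate, averaged -0.14, and Arg1, arginase, -0.14 with -0.39, -0.47 and 0.45. In S-adenosylmethionine supply and methionine salvage (11 of 12 measured, median -0.0067) Ahcyl1, a relative of the hydrolase of S-adenosylhomocysteine, averaged 0.14. Methionine synthase (Mtr) and the salvage enzyme Apip both averaged -0.093. Differences of the dim arginine enzymes changed sign between experiments, whereas those of Mtr and Apip did not. Without experiment 3 the list medians were -0.01 and -0.05.

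Of the 6 further pathway lists transport had the median furthest from 0, with 14 of 16 genes measured, a median of -0.10 log2 units and 11 means below 0. Slc7a1 and Slc7a2, both carriers of arginine, ornithine and lysine, stood on opposite sides. Slc7a1 differed by -0.13, -0.12 and -0.25, a mean of -0.17, and Slc7a2 by 0.10, 0.35 and 0.10, a mean of 0.18. Slc12a8, reported to carry polyamines, averaged 0.21 on a dim probe set (level 3.60). The list medians were 0.07, -0.17 and -0.10 in experiments 1 to 3, so the direction was not shared by experiment 1.

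The Myc network, which includes the factor known to drive Odc1 transcription, had a median of -0.017 log2 units over 8 genes. Mxd1, an antagonist of Myc, averaged -0.17, Mycl 0.06 and Mnt -0.053, and Myc itself was at 0.12, -0.08 and 0.01. Without experiment 3 the medians of the transport and Myc lists were -0.09 and -0.025.

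**Figure D3:**
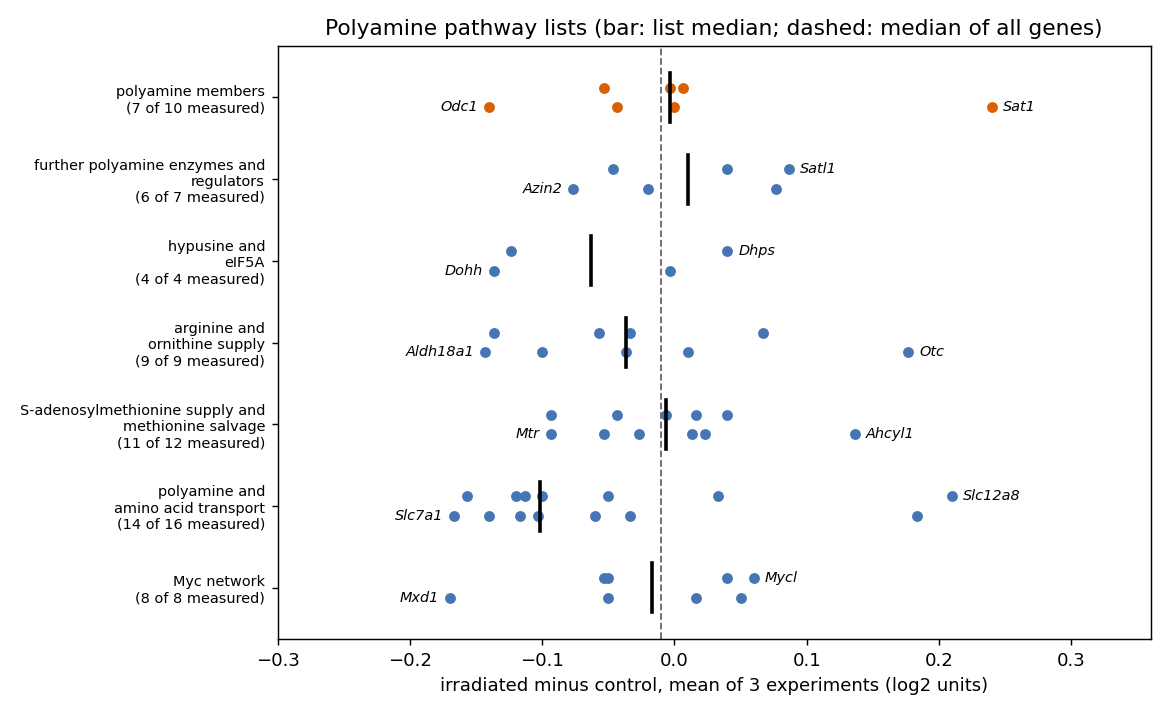
Mean irradiated-minus-control difference (log2 units, 3 experiments) of each measured gene in the polyamine set (orange) and 6 further lists (blue), with a bar at each list's median and a dashed line at the median of all genes, -0.01. Sat1 at 0.24 lies apart from the other 6 measured members. Sms, at 0.36 on the brightest probe set it shares with Sms-ps, is not plotted, nor are Amd1 and Paox. The transport list has its median at -0.10 with Slc12a8 and Slc7a2 on the other side.

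The genes whose pattern over the 6 arrays was most like that of Sat1 were Crk, Mib1, Chmp3, Bag2 and Nxph3, with Pearson r of 0.996, 0.983, 0.978, 0.967 and 0.967 among 9092 genes, which were those not under the median gene level with the 7 measured members left out. Crk, a signalling adaptor, had 10.71, 10.72 and 10.59 in irradiated cultures and 10.49, 10.36 and 10.42 in controls, almost the same steps as Sat1. Mib1, a ubiquitin ligase of the Notch pathway, followed the same order of arrays with a smaller difference, 0.083 log2 units. Chmp3, an ESCRT subunit, differed by 0.22 and the co-chaperone Bag2 by 0.13. The opposite pattern was closest in Metap1, a methionine aminopeptidase (r -0.986), the gamma-secretase subunit Aph1a (-0.983) and the stress granule protein G3bp1 (-0.983). With 6 arrays an r of 0.9 or more was reached by 39 of 9098 genes (0.429%), counted with the other 6 members included, and as the points share the 2 groups, a gene that resembles Sat1 also differs between them. Among the members r with Sat1 ran from -0.62 for Srm and -0.60 for Odc1 to 0.25 for Oaz2.

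**Figure D4:**
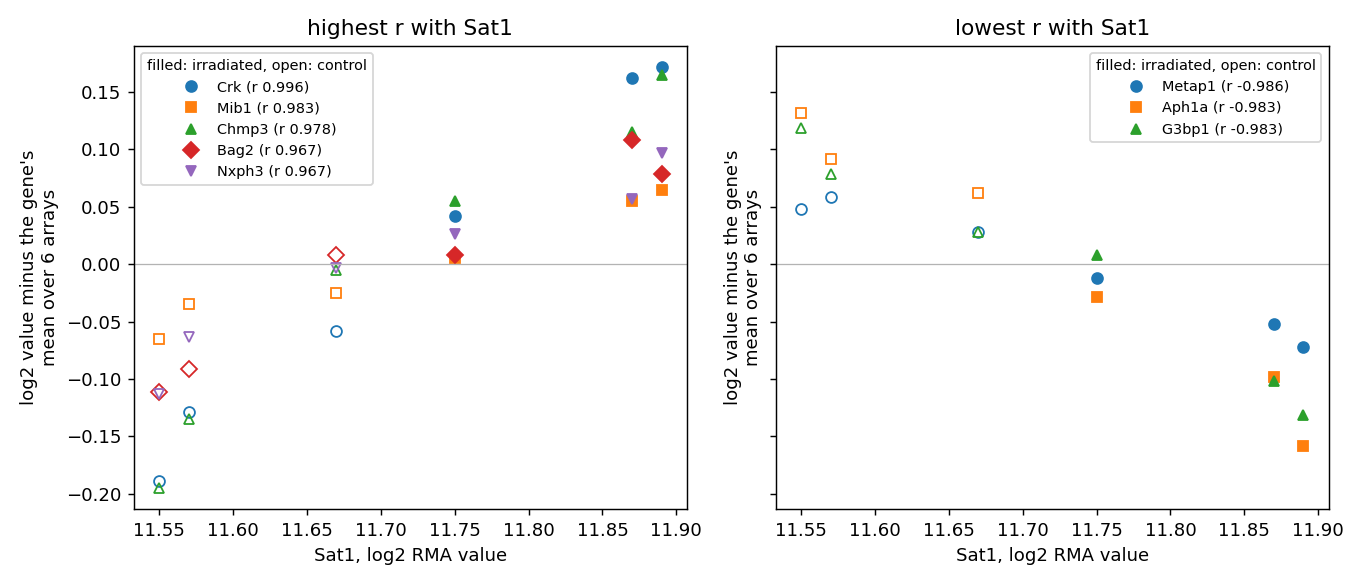
Log2 value minus the gene's mean over 6 arrays for the genes with the highest (left panel) and lowest (right panel) Pearson r with Sat1, plotted against the log2 value of Sat1 on the same array; filled symbols are irradiated and open symbols control cultures. Crk follows Sat1 nearly step for step, and Metap1, Aph1a and G3bp1 run the other way.

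Cell type markers were read on the same arrays. Of the mesenchymal stromal markers 8 of 9 measured lay at or above the median gene level, with Thy1 below it at 3.88, as did all 8 measured fat cell markers and 9 of 10 macrophage markers. Of the endothelial, epithelial and skeletal muscle markers 0 of 6, 1 of 5 and 0 of 5 did. The mean fat cell marker level ran from 10.66 to 10.99 in irradiated cultures and from 10.78 to 11.13 in controls, with differences of 0.06, -0.47 and 0.011 in the 3 experiments. On their brightest probe sets Sat1 (0.34), Srm (-0.24), Azin1 (0.07) and Oaz1 (0.02) were also furthest from 0 in experiment 2, though not in 1 direction. Odc1, Smox and Oaz2 were not. The Azin1 and Oaz1 values were small in every experiment. The other Azin1 probe sets and the one that Oaz1 shares with Oaz1-ps were furthest from 0 in experiment 3. The mean macrophage marker level ran from 10.56 to 11.15 in irradiated cultures and from 10.70 to 10.98 in controls, with differences of -0.14, 0.015 and 0.17. The mean stromal marker level ran from 9.10 to 9.25 in irradiated cultures and from 9.08 to 9.18 in controls. Its differences were 0.061, 0.10 and 0.019, largest in experiment 2, as for Sat1. The median differences of the stromal markers were 0.03, 0.09 and 0, and the dim Thy1 stood at 0.50 in experiment 1. Of the 9 stromal markers 3 (33.3%, against 8.23% of all genes) were above 0 in all 3 experiments, Nt5e at 0.21, Itgb1 at 0.18 and Pdgfrb at 0.13 on average, named after their values were seen. The means of 4 of the 9 were below 0, and the median of the list was 0.013. Epithelial markers were above 0 in all 3 experiments for 2 of 5 (40%), the dim Krt18 and Krt19. All 8 fat cell marker means were below 0, as were those of 9689 of 18193 genes. The fat cell medians were 0.085, -0.405 and 0.01 in experiments 1 to 3. All 5 skeletal muscle marker means were above 0, as in 45.2% of genes. Without experiment 2 the mean difference of Sat1 was 0.19. The part of these cell types in the polyamine values was not tested.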

How the data were processed

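The authors deposited a log2 value for each probe set and culture. Per the submitters' processing notes RMA, affy and limma were used, with no version named. The log base is stated by no label and was read from the range, 1.73 to 14.53. RMA forces the arrays into 1 distribution, which hides any shift shared by the whole transcriptome, and it compresses the changes of dim probe sets. Of 45037 tested probe sets 34945 had 1 symbol in the platform annotation, which gave 18193 genes with no filter on dim ones.

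limma (version 3.58.1, R 4.3.3) was fitted to all genes with the irradiation and the experiment as terms, with Benjamini-Hochberg adjusted p under 0.05. The design text pairs the cultures by experiment. After group means were removed, the 2 arrays of an experiment correlated at 0.15, -0.090 and -0.012 across genes. The fit leaves 2 residual degrees of freedom, and limma adds 4.66 from the variances of all genes. In both tests the error comes from the spread of the paired differences over the 3 experiments, drawn towards that common variance. The scripts were tested on simulated data.

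The members, the 6 further lists, the marker lists and the tests were chosen with earlier results of these data known. Up to 3 genes per further list were named by size of difference, and the 5 genes most like and 3 least like Sat1 by Pearson r. The alternatives tried were no experiment block, a random one, each experiment left out, a filter on dim genes, the mean of a gene's probe sets, every probe set, an intensity trend, an ordinary paired test, median centring and a fit without irradiation.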

Additional observations from a re-analysis of the deposited data

How the results depend on the processing

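The count of genes differing between irradiated and control cultures was 0 in the blocked limma fit with Benjamini-Hochberg adjustment, 0 with no replicate block, 0 with a random block, 0 without each experiment in turn, and 0 under all other alternatives run except 1. The ordinary paired test without moderation called 8 genes, each with the same rounded difference in all 3 experiments and none a member. The block changed no call. Between experiments limma called 0 genes, and 0 when each experiment was left out or arrays were centred. It called 1 gene at or above the median level, 1 with the mean of a gene's probe sets, 1 with no irradiation term and 2 with an intensity trend. These were Lyve1 and, with the trend, Saa3, named after their values were seen, and the cause was not tested. Other probe sets, their mean or centring gave 18 further values of member differences, of which 15 moved by less than the SD between experiments. The other 3 were of Azin1, -0.0033 on its brightest probe set, at 0.11 as the mean of its probe sets and at 0.13 and 0.19 on its other 2, and the cause was not tested. Centring moves all genes of an array alike, so its values among the 18 are a weak check. Sat1, Oaz1 and Srm had 1 probe set of their own and no other check of these kinds. Sat1 ranged from 0.19 to 0.27 when each experiment was left out. With 3 pairs the 95% interval of a member on its brightest probe set reached between 0.18 and 0.24 log2 units to either side.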
